A study of Homo sapiens with 40 samples.

Results

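Transcripts of 10 genes of the heparan sulfate proteoglycan system were followed in HER2+ breast cancer cells: the syndecans SDC1, SDC2, SDC3 and SDC4, the N-deacetylase/N-sulfotransferases NDST1, NDST2, NDST3 and NDST4, and the chain polymerases EXT1 and EXT2. They were matched by gene name and are 10 of the 44584 rows of the count table. NDST4 was chosen for its lower level with EGF and SDC3 for its higher baseline level in BT474R, so those values are given as a description with no test, and each gene is left out of the counts of the comparisons it was chosen on. RNA came from BT474, a HER2+ breast ductal carcinoma line sensitive to the anti-HER2 antibody trastuzumab, and from BT474R, a trastuzumab-resistant derivative that is 1 clone obtained by growth in the antibody. Both lines were starved in low-serum medium, a condition that all groups share. Cells were collected at that point (T0, 0 h) or after 1 h, 12 h or 24 h with epidermal growth factor (EGF-BT474, EGF-BT474R), heregulin (HRG-BT474, HRG-BT474R) or water as vehicle, which gave 20 groups of 2 libraries. The labels number the replicates but do not say that they are separate cultures. The p-values therefore measure only the spread between the 2 libraries of a group, pooled over the groups fitted, and that spread may be technical. Because BT474R is a single clone, resistance and a property of that clone cannot be told apart.

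Syndecans are transmembrane core proteins that carry heparan sulfate chains on the cell surface, where the chains hold growth factors, chemokines and matrix proteins near their receptors. EXT1 and EXT2 form a complex that lengthens the chain, and the NDST enzymes then remove acetyl groups and add sulfate, a step that the later epimerase and O-sulfotransferases build on. SDC1 is the main syndecan of epithelia, SDC2 is best known from mesenchymal cells, SDC3 from the nervous system, and SDC4 from focal adhesions of many cell types.

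The 250 bases before the transcription start are shown for NDST4 and SDC3, for which the set was chosen, and for SDC4, the syndecan whose response to ligand differed between the lines. The sequences are RefSeq's (GRCh38.p14). In the set of promoters used here 8 of the 10 genes had an entry, and SDC2 and EXT1 were missing from that set. Each is written 5′ to 3′ on the strand of its gene, which is the minus strand for all of them. NDST4 lies at chr4:115113621-115113870, SDC3 at chr1:30908759-30909008 and SDC4 at chr20:45348425-45348674. Capitals mark a motif found by a search of both strands for the AP-1 site TGACTCA, the cyclic AMP element TGACGTCA, the EGR sites GCGTGGGCG and GCGGGGGCG, the E box CACGTG and the TATA box TATAAA.
NDST4: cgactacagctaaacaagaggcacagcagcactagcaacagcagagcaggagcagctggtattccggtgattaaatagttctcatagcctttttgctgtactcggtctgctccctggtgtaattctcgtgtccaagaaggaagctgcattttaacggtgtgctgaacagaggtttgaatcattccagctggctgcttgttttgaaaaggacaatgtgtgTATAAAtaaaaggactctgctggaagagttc
SDC3: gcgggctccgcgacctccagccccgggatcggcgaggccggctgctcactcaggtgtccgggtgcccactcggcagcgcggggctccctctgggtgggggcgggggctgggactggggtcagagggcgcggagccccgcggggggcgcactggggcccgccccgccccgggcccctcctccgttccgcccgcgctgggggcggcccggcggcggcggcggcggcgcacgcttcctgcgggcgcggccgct
SDC4: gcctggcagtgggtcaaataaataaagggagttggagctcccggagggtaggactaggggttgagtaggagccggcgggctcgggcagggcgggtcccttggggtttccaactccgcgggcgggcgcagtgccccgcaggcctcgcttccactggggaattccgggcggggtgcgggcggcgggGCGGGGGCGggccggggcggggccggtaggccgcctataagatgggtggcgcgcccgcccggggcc
The NDST4 stretch held a TATA box that began 31 bases before the start, and 10.7% of the 35116 promoters in the table hold that motif in the same window. Its GC content was 45.6%, against a median of 58% over all promoters and 83.6% for SDC3, and it contained 5 CpG dinucleotides where the SDC3 stretch had 37. The SDC3 stretch held none of the searched motifs. The SDC4 stretch held the EGR site GCGGGGGCG, beginning 66 bases before the start, which 4.72% of promoters share. Of the other members, the NDST1 stretch held an AP-1 site (4.20% of promoters). An EXT2 stretch held the letters of the TATA box on the opposite strand, beginning 188 bases before the start. A match is a run of letters and was not shown to be bound.

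A library held between 16794594 and 33387936 counts. Levels are CPM, a library's counts scaled to a common total, with TMM factors of 0.936 to 1.08, and 3 counts or fewer, at most 0.179 CPM, were taken as the detection limit, which covers counting error only. All 10 members passed the filter on low counts in each line. The luminal markers ERBB2, EPCAM, CDH1, KRT8, KRT18, KRT19 and ESR1 were above that limit in every library, while GATA3 stood at 307 to 546 CPM in BT474 and at 10.6 to 55.5 CPM in BT474R. The leukocyte gene PTPRC was at the limit in all 40 libraries, and the endothelial gene PECAM1 in 18 of the 20 BT474 and 19 of the 20 BT474R libraries. The fibroblast gene COL1A1 was above the limit in every library, at 75.1 to 105 CPM in BT474 and 169 to 295 CPM in BT474R. The 2 libraries of HRG-BT474R at 24 h differed more than any other pair, with a median chi-square over genes of 2.56 where the other pairs gave 0.595 to 1.58 and counting noise alone gives 0.455. Fewer expressing cells and less RNA per cell cannot be told apart in bulk RNA.

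Per kilobase of the MANE Select transcript, SDC1 and SDC4 were the leading syndecans in both lines, while SDC2 and SDC3 changed places. The median level of SDC1 was 80.8 CPM per kilobase in BT474 and 168 in BT474R, and that of SDC4 was 59.6 and 44.6. SDC2 had a median of 11.8 CPM per kilobase in BT474 and 1.5 in BT474R, whereas SDC3 had 5.27 and 24.6. SDC3 thus lay below SDC2 in every BT474 library and above it in every BT474R library. As a share of the summed syndecan level per kilobase, SDC1 made up 44.6% to 58.9% in BT474 libraries and 64.3% to 71.9% in BT474R libraries. The median share of SDC4 was 39.7% in BT474 and 19.5% in BT474R, that of SDC2 7.39% and 0.619%, and that of SDC3 3.25% and 10.1%. The summed level itself had a median of 155 CPM per kilobase in BT474 and 242 in BT474R. These shares describe each line over all its treatments.

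**Figure D1:**
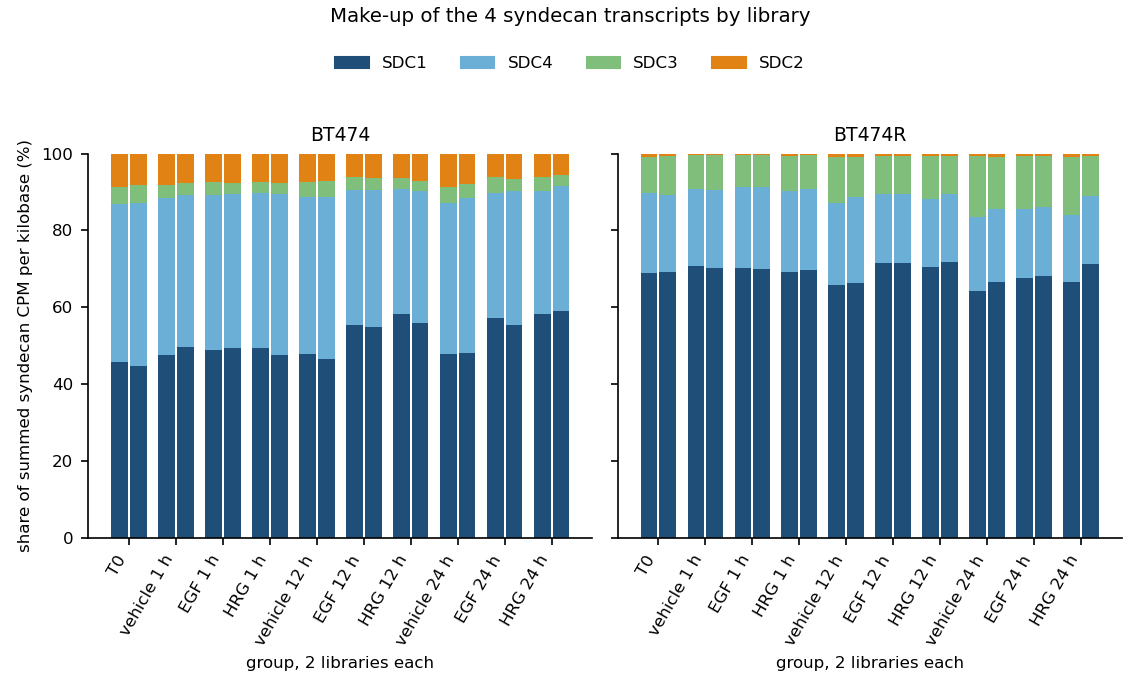
Each bar is 1 library, and its colours give the share (%) of SDC1, SDC4, SDC3 and SDC2 in the summed syndecan CPM per kilobase, by group, for BT474 (left) and BT474R (right). SDC1 takes 44.6% to 58.9% in BT474 and 64.3% to 71.9% in BT474R, and the SDC2 share is at most 0.952% in a BT474R library.

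Among the enzymes NDST1 was the leading NDST, with a median of 35.3 CPM per kilobase in BT474 and 22.6 in BT474R, followed by NDST2 with 6.04 and 6.16. NDST4 reached medians of 1.08 and 1.03 CPM per kilobase, and NDST3 only 0.0626 and 0.0364. NDST3 was counted between 0 and 17 times in a library and was at the detection limit in 1 BT474 and 7 BT474R libraries, so its fold changes rest on few reads. EXT2 exceeded EXT1 in both lines (7.82 against 4.19 CPM per kilobase in BT474, 5.97 against 3.03 in BT474R), with ranges that did not overlap. In the GENCODE 44 annotation a read-through gene on the same strand covers 99% of the NDST2 transcript, and how the authors' counting treated such reads is not given in the sources used here, so the level of NDST2 is uncertain.

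The first comparison was of the lines without ligand. At T0, 7 of the 9 members counted passed the quasi-likelihood test of edgeR, with p-values adjusted over all genes by Benjamini-Hochberg (written as edgeR adjusted p from here on), 1 upward and 6 downward in BT474R, beside 46.9% of all genes. In the vehicle groups 8 of 10 were called at 1 h, 7 at 12 h and 8 at 24 h, beside 50.2%, 49.0% and 49.3% of all genes. The 8 at 24 h include NDST4, whose vehicle libraries were part of its choice, and are 7 without it. SDC3 is 1 of the upward calls at each of these times, and it was chosen for its higher level in the same clone at T0. About as many genes differed between the lines as did not, and the members are therefore described by the size of their differences. GATA3 was lower in BT474R, COL1A1 was higher (75.1 to 105 CPM in BT474, 169 to 295 CPM in BT474R), and VIM ran from 22.5 to 39.7 CPM in BT474 and from 30.2 to 98.4 CPM in BT474R. Of the basal keratins, KRT14 was at the detection limit in 20 of 20 BT474 and 17 of 20 BT474R libraries, and KRT5 in 11 and 0. Their part in the differences between the lines was not tested.

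SDC1, which binds matrix and growth factors at the epithelial surface, was higher in BT474R, with a ratio of medians of 2.08. It was at 210.4 and 197 CPM in BT474 and at 458 and 463 CPM in BT474R at T0. The log2 difference was 1.18 ± 0.052 (SE, n = 2 a group; edgeR adjusted p = 1.24e-20). It was 1.25, 1.01 and 0.89 in the vehicle groups of 1 h, 12 h and 24 h. Every BT474R library lay above every BT474 library, with 393 CPM as the lowest BT474R value and 311 CPM as the highest BT474 value.

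SDC2 was far lower in BT474R. At T0 the libraries had 41.3 and 38.7 CPM in BT474 and 6.001 and 4.21 CPM in BT474R, a log2 difference of -3.00 ± 0.12 (edgeR adjusted p = 2.73e-22). With vehicle the log2 difference was -3.39 ± 0.11 at 1 h, -2.42 ± 0.10 at 12 h and -2.88 ± 0.11 at 24 h. Over all treatments BT474 libraries held 27.7 to 42.5 CPM and BT474R libraries 3.55 to 6.89 CPM, so the lines did not overlap. SDC2 was still counted in every BT474R library, between 84 and 202 times.

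SDC3, chosen for its baseline gain, had 33.8 and 34.3 CPM in BT474 and 105 and 114 CPM in BT474R at T0, a log2 difference of 1.68 ± 0.11 that is given without a test. In the vehicle groups, whose libraries the choice did not use, it was also higher in BT474R. At 1 h the values were 28.1 and 26.6 CPM in BT474 and 118 and 128 CPM in BT474R (log2 difference 2.17 ± 0.11, edgeR adjusted p = 1.02e-18). At 12 h the log2 difference was 2.00 ± 0.11, and at 24 h, with 32.7 and 28.2 CPM against 159.7 and 149 CPM, it was 2.35 ± 0.11 (edgeR adjusted p = 7.88e-20). The lines did not overlap in any library.

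SDC4 and most of the chain-building enzymes were lower in BT474R by smaller amounts. SDC4 had 156 and 154 CPM in BT474 and 113 and 109 CPM in BT474R at T0 (log2 difference -0.48 ± 0.050, edgeR adjusted p = 2.01e-10), and its difference in the vehicle groups ran from -0.62 to -0.29. NDST1 had 288 and 274 CPM against 170.3 and 179 CPM (-0.69 ± 0.065, edgeR adjusted p = 2.02e-11). EXT1 differed by -0.43 and EXT2 by -0.32 at T0, and both differed most with vehicle at 24 h. EXT1 then had 32.9 and 34.7 CPM in BT474 and 17.6 and 17.0 CPM in BT474R (-0.97 ± 0.073, edgeR adjusted p = 5.83e-14). EXT2 had 76.2 and 76.8 CPM against 49.6 and 55.2 CPM (-0.55 ± 0.055, edgeR adjusted p = 1.07e-10). The ranges of NDST1 and EXT2 over all treatments did not overlap between the lines, while those of SDC4 and EXT1 did.

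NDST2 was not called between the lines in any of the 4 comparisons, and its median over all libraries was 22.7 CPM in BT474 and 23.2 CPM in BT474R. NDST4 had 5.88 and 5.14 CPM in BT474 and 3.901 and 3.65 CPM in BT474R at T0, a difference of -0.55 ± 0.24 that missed the threshold (edgeR adjusted p = 0.0536) and passed it with DESeq2 size factors, with edgeR's filterByExpr, with no filter and with only the compared groups in the fit. With vehicle at 24 h the libraries had 5.996 and 4.61 CPM in BT474R and 3.53 and 3.30 CPM in BT474, a difference of 0.65 ± 0.23 that is given as a description, because the gene was chosen for its fall from these vehicle libraries. NDST3 was called lower in BT474R at T0 (-1.74) and with vehicle at 1 h (-1.67), on counts of 17 and 4 against 1 and 4 and of 14 and 10 against 6 and 3. DESeq2 made neither call. They were also lost without BT474 T0 replicate 1 (-0.61) or BT474R T0 replicate 1 (-1.27), and without BT474 vehicle 1 h replicate 1 (-1.37) or BT474R vehicle 1 h replicate 2 (-1.04).

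**Figure D2:**
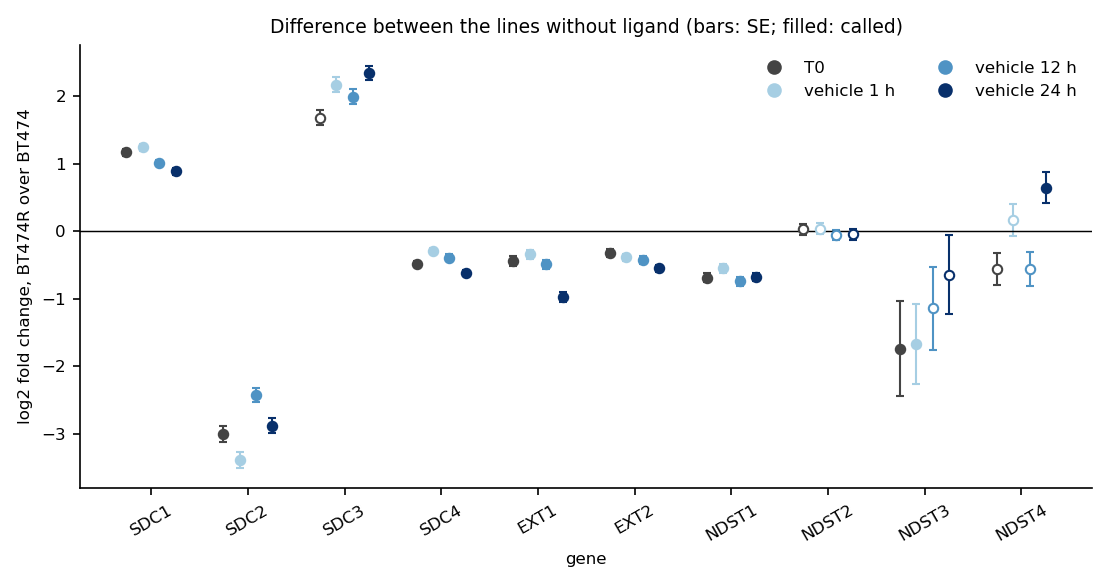
Points give the log2 fold change of BT474R over BT474 for each gene at T0 and with vehicle for 1 h, 12 h or 24 h, with the SE as bars, and filled points passed the test. SDC1 and SDC3 lie above 0 and SDC2, SDC4, EXT1, EXT2 and NDST1 below it in all 4 comparisons, and SDC3 at T0 is open because it was not tested. The filled NDST4 point at 24 h rests on vehicle libraries that were part of its choice.

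The next comparison followed the members without ligand, from T0 into the vehicle groups. In BT474, 4 of 10 members were called at 1 h, 1 at 12 h and 2 at 24 h, beside 6.61%, 6.41% and 11.4% of all genes. In BT474R 3 were called at 1 h, 0 at 12 h and 2 at 24 h, beside 2.24%, 1.13% and 13.7%. For the count of 0, 3 members (SDC2, SDC3 and SDC4) had an unadjusted edgeR p under 0.05, and DESeq2 called 0. The comparisons of a line share its T0 libraries. They also use libraries on which 2 members were chosen, the T0 libraries for SDC3 and the vehicle libraries for NDST4. NDST4 is 1 of the calls at each time in BT474, and SDC3 is 1 of those in BT474 at 1 h and in BT474R at 24 h.

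SDC1 rose within 1 h in both lines. In BT474 it went from 210.4 and 197 CPM to 235 and 252 CPM (0.27 ± 0.039, edgeR adjusted p = 6e-06). In BT474R it went from 458 and 463 CPM to 565 and 591 CPM (0.33 ± 0.057, edgeR adjusted p = 0.00165), a call lost without vehicle replicate 2 (0.30). SDC1 was also called in BT474 at 24 h, at 0.15, but not without T0 replicate 2 (0.11), without vehicle replicate 2 (0.13) or in 1 fit of all 40 libraries.

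NDST4 was lower with vehicle than at T0 in BT474, given here as a description because its vehicle libraries were part of its choice. The libraries had 5.88 and 5.14 CPM at T0, 3.85 and 2.94 CPM with vehicle at 1 h, 3.38 and 3.80 CPM at 12 h and 3.53 and 3.30 CPM at 24 h. No vehicle library reached the T0 level. The log2 difference from T0 was -0.70 ± 0.16 at 1 h, -0.63 ± 0.15 at 12 h and -0.70 ± 0.16 at 24 h. In BT474R the vehicle libraries at 24 h (5.996 and 4.61 CPM) lay above those of T0 (3.901 and 3.65 CPM).

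SDC3 had 105 and 114 CPM at T0 and 159.7 and 149 CPM with vehicle at 24 h in BT474R, a log2 difference of 0.51 ± 0.097 given without a test, since the T0 libraries were part of its choice. In BT474 its difference from T0 was -0.31 with vehicle at 1 h. EXT1 rose in BT474R within 1 h, from 22.0 and 22.1 CPM to 27.0 and 27.6 CPM (0.31 ± 0.078, edgeR adjusted p = 0.0377), and was below T0 at 24 h, with 17.6 and 17.0 CPM (-0.34 ± 0.083, edgeR adjusted p = 0.00806). The call at 1 h was lost without any 1 of the 4 libraries (0.30 to 0.32), with DESeq2 and with no filter, and the call at 24 h without T0 replicate 2 (-0.35). SDC4 rose within 1 h in BT474R, from 113 and 109 CPM to 132 and 139 CPM (0.29 ± 0.056, edgeR adjusted p = 0.00562), a call lost without T0 replicate 2 (0.27) or vehicle replicate 2 (0.25). In BT474 at 1 h EXT1 was called at 0.23, and the call was lost without any 1 of the 4 libraries (0.19 to 0.24), with DESeq2 and in 1 fit of all 40 libraries.

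**Figure D3:**
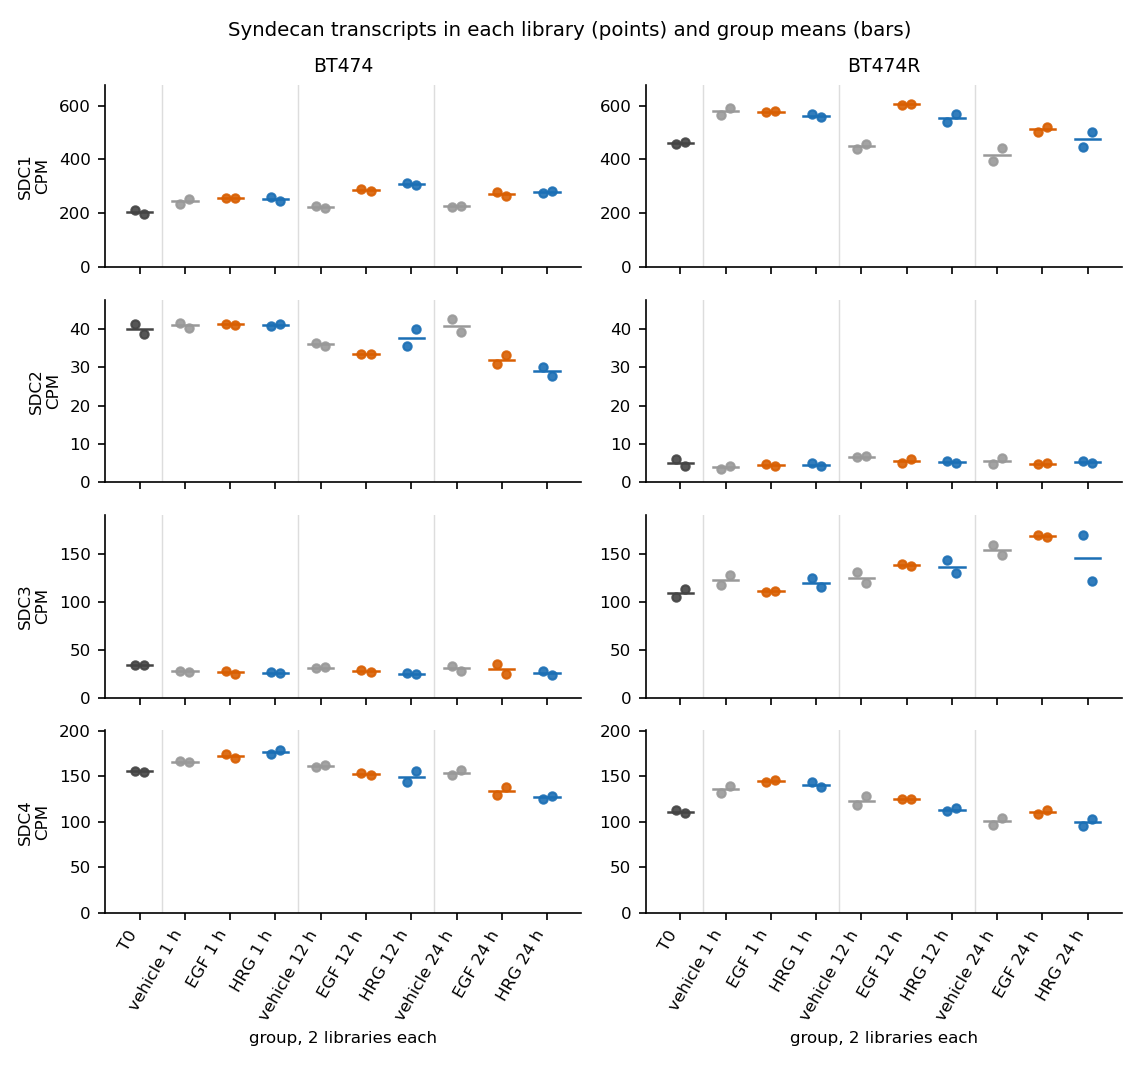
CPM of the 4 syndecans in each library (points) with the group mean (bars), by line and group, T0 in dark grey, vehicle in grey, EGF in orange and HRG in blue. The y axis starts at 0 and is shared by both lines for each gene, SDC1 reaches 311 CPM at most in BT474 and 605 CPM in BT474R, and SDC2 stays at or below 6.89 CPM in BT474R.

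Each ligand was set against vehicle at its own time point, to follow the response to EGF and HRG in the sensitive and the resistant line. At 1 h none of the members counted was called. This was 0 of 9 in EGF-BT474 beside 2.19% of all genes, 0 of 10 in HRG-BT474 beside 2.77%, 0 of 9 in EGF-BT474R beside 0.457% and 0 of 10 in HRG-BT474R beside 0.169%. With edgeR, 0 members had an unadjusted p under 0.05 except in HRG-BT474R, where 1 (NDST3) did, and DESeq2 called 0 in each.

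At 12 h and 24 h several members were called. In EGF-BT474 they were 3 of 9 at 12 h (1 up, 2 down) and 4 of 9 at 24 h (1 up, 3 down), beside 16.0% and 16.4% of all genes. In HRG-BT474 they were 6 of 10 at both times (1 up, 5 down), beside 25.8% and 24.1%. In EGF-BT474R 3 of 9 were called at 12 h (2 up, 1 down) and 4 of 9 at 24 h (2 up, 2 down), beside 12.0% and 17.3%. In HRG-BT474R 2 of 10 were called at 12 h (1 up, 1 down) and 1 of 10 at 24 h (down), beside 4.12% and 2.78%. Added over the times, these 3 calls became 6 without HRG-BT474R 24 h replicate 1 and 1 without HRG-BT474R 12 h replicate 2. The median log2 fold change was taken over the members counted, 9 without NDST4 for EGF and 10 with it for HRG. It was -0.1 at 12 h and -0.118 at 24 h in EGF-BT474, and -0.245 and -0.273 in HRG-BT474. In EGF-BT474R it was 0.0181 and -0.0572, and in HRG-BT474R -0.12 and -0.0631. The medians over all genes were, in the same order, -0.0279 and -0.023, -0.017 and -0.0203, -0.0119 and -0.0107, and -0.0157 and 0.01. The EGF and HRG comparisons of a line share their vehicle libraries. Those libraries were part of the choice of NDST4, which is 1 of the downward calls in each HRG comparison at 12 h and 24 h. In HRG-BT474R at 24 h NDST4 is the only call. SDC1 was the upward call in each BT474 comparison at 12 h and 24 h.

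**Figure D4:**
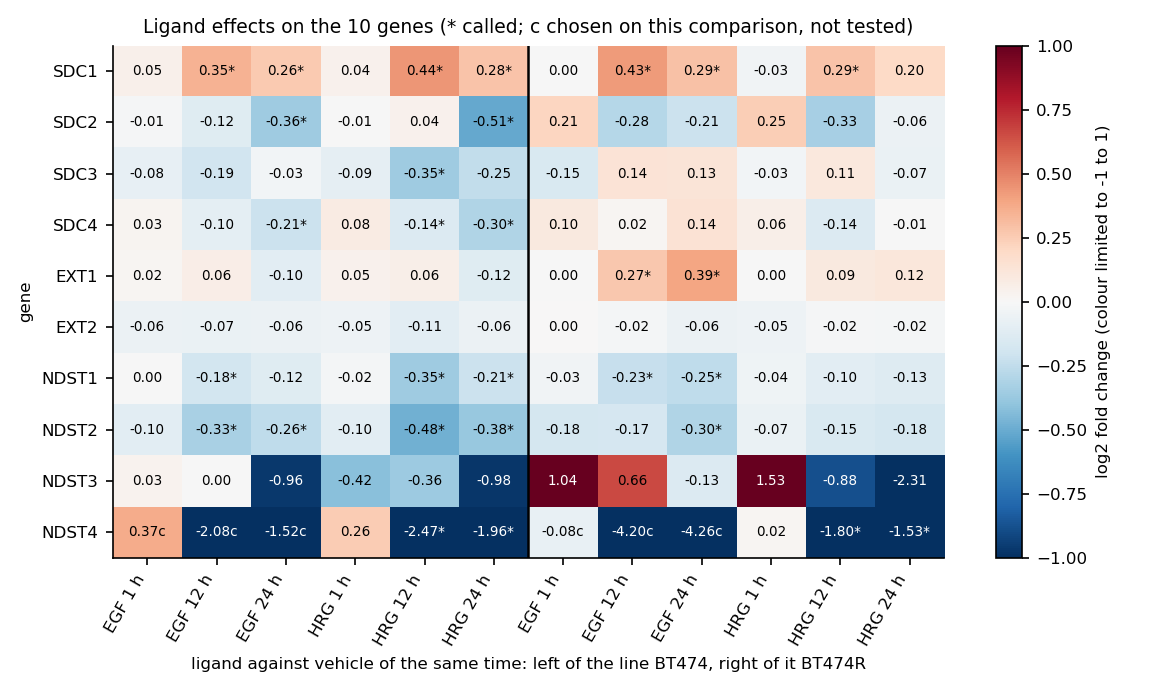
Each cell gives the log2 fold change of ligand against vehicle for 1 gene in 1 comparison, BT474 left of the line and BT474R right of it, with colours limited to -1 to 1, an asterisk for a call and c for an NDST4 value that was not tested because the gene was chosen on it. SDC1 is called upward in every 12 h and 24 h comparison except HRG-BT474R at 24 h (0.20).

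SDC1 rose with both ligands. In BT474 at 12 h it had 226 and 218 CPM with vehicle, 291 and 281 CPM with EGF and 311 and 306 CPM with HRG. The 3 groups did not overlap. The log2 fold change was 0.35 ± 0.039 with EGF (edgeR adjusted p = 9.28e-09) and 0.44 ± 0.038 with HRG (edgeR adjusted p = 8.07e-12), and at 24 h it was 0.26 and 0.28. In BT474R at 12 h SDC1 had 439.5 and 459 CPM with vehicle, 602 and 605 CPM with EGF and 539 and 569 CPM with HRG, again without overlap. The rise was 0.43 ± 0.057 with EGF (edgeR adjusted p = 1.65e-05) and 0.29 ± 0.057 with HRG (edgeR adjusted p = 0.0039), the latter lost without vehicle replicate 1 (0.27) or HRG replicate 2 (0.25). At 24 h EGF raised it by 0.29, to 502 and 522 CPM from 393 and 442 CPM. With HRG at 24 h (446 and 502 CPM) the fold change of 0.20 did not pass the test (edgeR adjusted p = 0.0695), whereas DESeq2, no filter on low counts and 1 fit of all 40 libraries each called it.

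SDC2 fell in BT474 at 24 h with both ligands. It had 42.5 and 39.1 CPM with vehicle, 30.7 and 33.3 CPM with EGF and 30.2 and 27.7 CPM with HRG. It fell by 0.36 ± 0.067 with EGF (edgeR adjusted p = 0.000128) and by 0.51 ± 0.067 with HRG (edgeR adjusted p = 1.69e-07) on the log2 scale. At 12 h the vehicle libraries (36.4 and 35.6 CPM) lay within the range of the HRG libraries (35.4 and 39.9 CPM). In BT474R, where SDC2 was low throughout, no ligand comparison was called.

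SDC4 fell in BT474 at 24 h, from 151 and 157 CPM with vehicle to 129.9 and 138 CPM with EGF and 125 and 129 CPM with HRG. The log2 fold change was -0.21 ± 0.044 (edgeR adjusted p = 0.000435) and -0.30 ± 0.044 (edgeR adjusted p = 1.12e-06). At 12 h it was called with HRG, at -0.14, a call lost in 1 fit of all 40 libraries, without vehicle replicate 1 (-0.15) or 2 (-0.11) and without HRG replicate 1 (-0.075). In BT474R SDC4 was not called with either ligand. At 24 h its libraries there had 96.7 and 105 CPM with vehicle, 109 and 113 CPM with EGF and 95.1 and 103 CPM with HRG.

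SDC3 fell in HRG-BT474 at 12 h, from 31.3 and 31.5 CPM to 25.3 and 24.9 CPM (-0.35 ± 0.094, edgeR adjusted p = 0.00414), and no other ligand comparison was called for it. At 24 h HRG-BT474 missed the threshold (-0.25 ± 0.095, edgeR adjusted p = 0.0577) and passed it with no filter and with only the compared groups in the fit. At 24 h EGF-BT474 had 35.0 and 24.4 CPM, and HRG-BT474R, the pair that stood apart, had 169.9 and 122 CPM around a vehicle level of 159.7 and 149 CPM.

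EXT1, a catalytic subunit of the chain polymerase, rose in EGF-BT474R. It had 24.2 and 24.0 CPM with vehicle and 28.4 and 29.7 CPM with EGF at 12 h, and 17.6 and 17.0 CPM against 22.5 and 23.0 CPM at 24 h. The groups did not overlap at either time. The log2 fold change was 0.27 ± 0.076 at 12 h (edgeR adjusted p = 0.0226) and 0.39 ± 0.081 at 24 h (edgeR adjusted p = 0.00141). The call at 12 h was lost without any 1 of the 4 libraries (0.25 to 0.29). At 24 h EGF-BT474R was close to the T0 level of 22.0 and 22.1 CPM while vehicle was below it. EXT2, its partner, was called with neither ligand in either line, and its log2 fold changes lay between -0.11 and 0.0021.

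NDST1 fell in BT474 at 12 h with both ligands. It had 301 and 302 CPM with vehicle, 273 and 263 CPM with EGF and 241 and 240.5 CPM with HRG. The 3 groups did not overlap. It fell by 0.18 ± 0.051 with EGF (edgeR adjusted p = 0.00863) and by 0.35 ± 0.051 with HRG (edgeR adjusted p = 6.57e-07) on the log2 scale. The EGF call was lost in 1 fit of all 40 libraries, without vehicle replicate 2 (-0.17) and without EGF replicate 2 (-0.16). At 24 h NDST1 was called only with HRG, at -0.21, and not without HRG replicate 2 (-0.11).

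NDST2 had 26.5 and 26.6 CPM with vehicle at 12 h, 22.1 and 20.6 CPM with EGF and 19.6 and 19.3 CPM with HRG in BT474. It fell by 0.33 ± 0.075 with EGF (edgeR adjusted p = 0.00137) and by 0.48 ± 0.074 with HRG (edgeR adjusted p = 2.42e-06) on the log2 scale. At 24 h it was called at -0.26 with EGF and -0.38 with HRG, and the EGF call was lost without vehicle replicate 2 (-0.17), without EGF replicate 1 (-0.22) or with only the compared groups in the fit.

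In BT474R both enzymes fell with EGF. NDST1 had 192 and 198 CPM with vehicle and 167 and 161 CPM with EGF at 24 h (-0.25 ± 0.064, edgeR adjusted p = 0.00699), a call lost without EGF replicate 2 (-0.22). Its call at 12 h, -0.23 ± 0.064, was lost without any 1 of the 4 libraries (-0.25 to -0.20). NDST2 was called at 24 h (-0.30 ± 0.090, edgeR adjusted p = 0.0242), but not without vehicle replicate 1 (-0.18), without EGF replicate 1 (-0.24) or with only the compared groups in the fit. HRG-BT474R gave no call for either enzyme.

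NDST4 was chosen for its lower level with EGF, so the direction and size of its EGF differences were part of the choice. In BT474 it had 3.38 and 3.80 CPM with vehicle at 12 h and 0.749 and 0.960 CPM with EGF, a log2 fold change of -2.08 ± 0.23. At 24 h it had 3.53 and 3.30 CPM with vehicle and 1.04 and 1.36 CPM with EGF (-1.52 ± 0.21). The EGF libraries lay below every vehicle library of the line. In BT474R it had 2.17 and 2.66 CPM with vehicle at 12 h and 0.157 and 0.0935 CPM with EGF (-4.20 ± 0.60), on counts of 49 and 78 against 4 and 2. At 24 h there it had 5.996 and 4.61 CPM with vehicle and 0.305 and 0.244 CPM with EGF (-4.26 ± 0.45), on counts of 156 and 98 against 7 and 6. These EGF values are descriptions, and 1 of the EGF-BT474R libraries at 12 h was at the detection limit. With EGF at 1 h NDST4 had 4.37 and 4.52 CPM in BT474 against 3.85 and 2.94 CPM with vehicle (0.37; 0.60 without vehicle replicate 1), and in BT474R the fold change was -0.075.

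The HRG libraries were not part of the choice of NDST4, but the vehicle libraries they are compared with were. The adjusted p-values of its HRG comparisons, in both lines, are therefore not free of that choice. NDST4 is 1 of the members counted as called in each HRG comparison at 12 h and 24 h. In BT474 at 12 h NDST4 had 0.734 and 0.590 CPM with HRG, a log2 fold change of -2.47 ± 0.23 (edgeR adjusted p = 5.28e-11). At 24 h it had 0.943 and 0.820 CPM with HRG with a log2 fold change of -1.96 ± 0.22 (edgeR adjusted p = 5.46e-09). Both calls held without any 1 of the 4 libraries, with values of -2.61 to -2.32 and -2.08 to -1.86. In BT474R at 12 h the HRG libraries had 0.893 and 0.517 CPM (-1.80 ± 0.40, edgeR adjusted p = 0.0104), a call lost without vehicle replicate 2 (-1.64) or HRG replicate 2 (-1.46).

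In BT474R at 24 h the 2 HRG libraries differed widely in NDST4, with 2.98 and 0.657 CPM on 64 and 14 counts. Both lay below the vehicle libraries, and the log2 fold change was -1.53 ± 0.32 (edgeR adjusted p = 0.00992). Without HRG replicate 1 it was -3.00 and remained called, and without HRG replicate 2 it was -0.82 and was not called. The call was also lost without vehicle replicate 1 (-1.33).

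**Figure D5:**
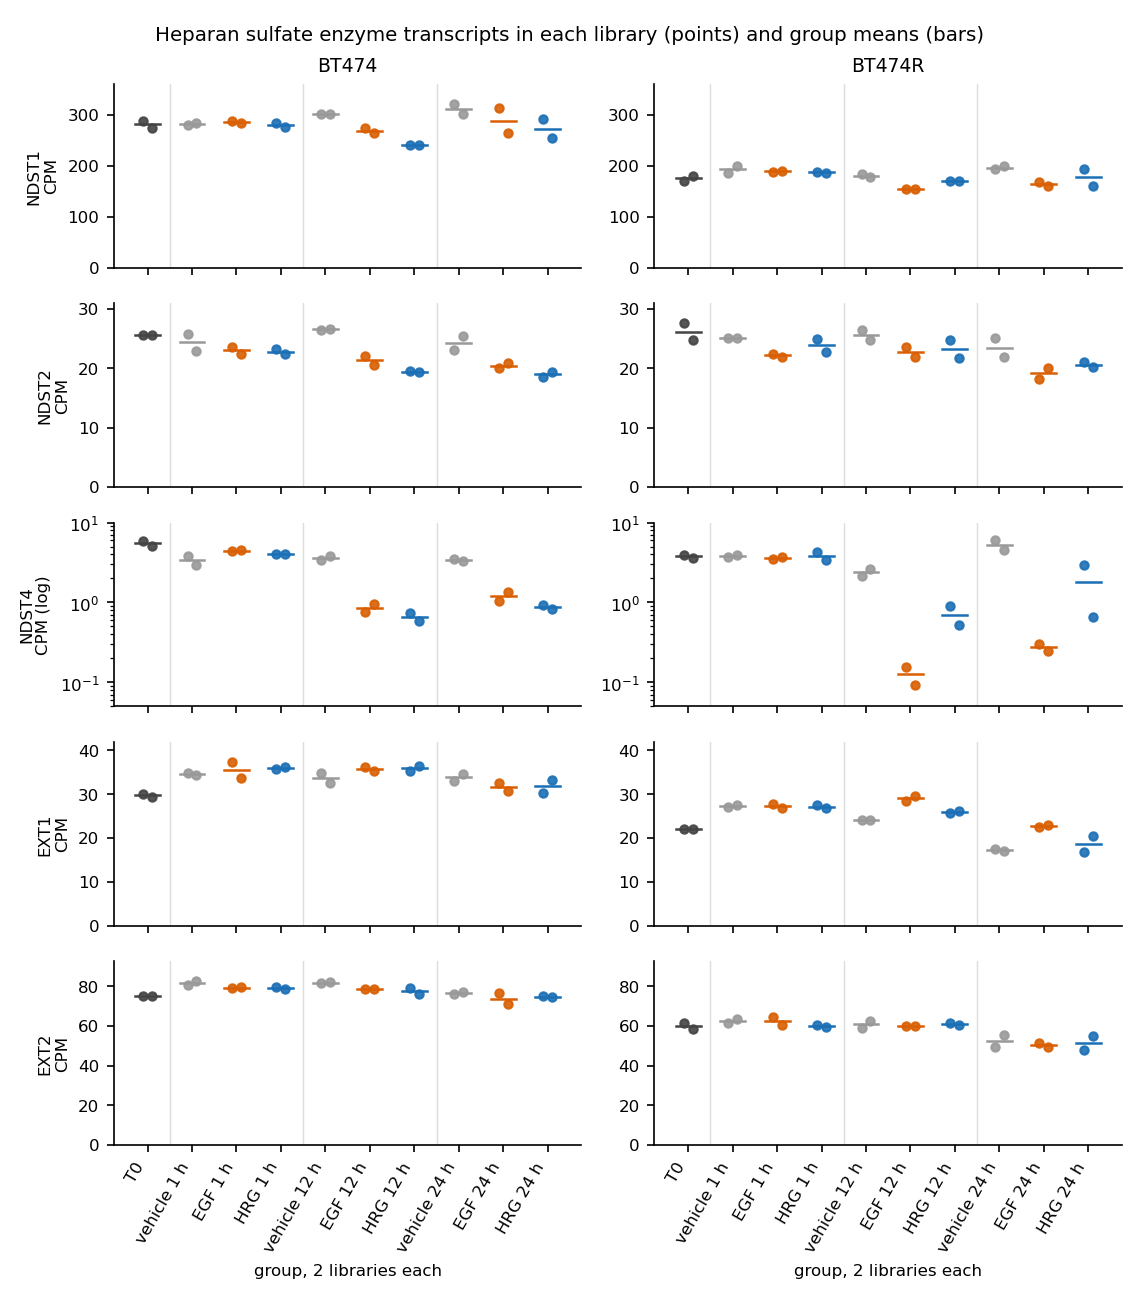
CPM of NDST1, NDST2, NDST4, EXT1 and EXT2 in each library (points) with the group mean (bars), by line and group, T0 in dark grey, vehicle in grey, EGF in orange and HRG in blue. The y axis starts at 0 except for NDST4, where it is logarithmic, and the HRG-BT474R libraries of NDST4 at 24 h lie apart at 2.98 and 0.657 CPM.

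The ligands were then compared with each other. The authors gave EGF at a higher concentration by mass than HRG, so ligand and dose cannot be told apart. No member counted was called between HRG and EGF at 12 h or 24 h, with 0 of 9 each time, beside 2.17% and 0.768% of all genes in BT474 and 1.42% and 5.18% in BT474R. At an unadjusted edgeR p under 0.05 there were 3 and 2 members in BT474 and 3 and 3 in BT474R, and DESeq2 called 0 in all 4. The member nearest the threshold in BT474 was NDST1 at 12 h (-0.17 ± 0.051, edgeR adjusted p = 0.0714), which was called with no filter and with only the compared groups in the fit. In BT474R it was EXT1 at 24 h (-0.27 ± 0.081, edgeR adjusted p = 0.0516), which was called with DESeq2 size factors, with edgeR's filterByExpr and in 1 fit of all 40 libraries. For SDC1 the HRG minus EGF difference was 0.096 ± 0.038 at 12 h in BT474 and -0.14 ± 0.057 in BT474R. NDST4, not tested here, had HRG minus EGF differences of -0.39 ± 0.33 at 12 h and -0.43 ± 0.27 at 24 h in BT474. In BT474R they were 2.40 ± 0.77 and 2.73 ± 0.55, on EGF counts of 4 and 2 at 12 h and 7 and 6 at 24 h. With 1 library left out, the BT474R value at 12 h ran from 1.96 to 2.84. That at 24 h ran from 1.26 (without HRG replicate 1) to 3.44 (without HRG replicate 2).

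Finally the ligand effects were compared between the lines with an interaction term. For EGF 0 of 9 members differed at 12 h and 2 of 9 at 24 h, beside 1.96% and 4.01% of all genes. For HRG 0 of 10 differed at 12 h and 1 of 10 at 24 h, beside 4.07% and 3.33%. At 12 h edgeR gave 0 members an unadjusted p under 0.05 for EGF and 5 for HRG, and DESeq2 called 0 and 1 (SDC3). SDC3 had a difference of 0.45 ± 0.16 for HRG at 12 h (edgeR adjusted p = 0.105). The called members were SDC4 and EXT1.

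SDC4 fell with EGF at 24 h in BT474 (-0.21 ± 0.044). In BT474R its log2 fold change was 0.14 ± 0.057 and was not called (edgeR adjusted p = 0.0954). The difference between the effects, BT474R minus BT474, was 0.35 ± 0.070 (edgeR adjusted p = 0.00119). For HRG at 24 h the difference for SDC4 was 0.26 ± 0.070 (edgeR adjusted p = 0.0296). That call was lost with only the compared groups in the fit, which made 85 calls over all genes against 821, and without BT474 vehicle replicate 1 (0.27) or 2 (0.24), BT474 HRG replicate 1 (0.25), BT474R vehicle replicate 1 (0.20) or BT474R HRG replicate 2 (0.20). EXT1, raised by EGF at 24 h in BT474R, had 32.9 and 34.7 CPM with vehicle and 32.5 and 30.8 CPM with EGF in BT474, and the effects differed by 0.49 ± 0.10 (edgeR adjusted p = 0.00193). The EGF effect on NDST4 differed by -2.13 ± 0.73 at 12 h and -2.75 ± 0.56 at 24 h, given as a description, while its HRG effect differed by 0.66 ± 0.52 and 0.39 ± 0.43, neither called. For SDC1 the EGF effect differed by 0.065 ± 0.072 at 12 h and 0.024 ± 0.072 at 24 h, neither called.

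The rest of the pathway was followed with a list of 64 genes in 10 classes, of which 59 were tested in BT474 and 58 in BT474R. At 12 h and 24 h, 21 and 27 of them were called in EGF-BT474, 26 and 31 in HRG-BT474, 21 and 27 in EGF-BT474R, and 8 and 4 in HRG-BT474R. At 12 h this was 35.6%, 44.1%, 36.2% and 13.8% of the tested list, where 16.0%, 25.8%, 12.0% and 4.12% of all genes were called. At 24 h it was 45.8%, 52.5%, 46.6% and 6.90% of the tested list, where 16.4%, 24.1%, 17.3% and 2.78% of all genes were called. At 1 h the calls were 1, 2, 1 and 0 in the same order, beside 2.19%, 2.77%, 0.457% and 0.169% of all genes. The list was not matched to all genes by level, and the share of all genes includes genes with very few counts. The direction was divided, with 13 up and 14 down in EGF-BT474, 14 up and 17 down in HRG-BT474 and 17 up and 10 down in EGF-BT474R at 24 h. The median log2 fold change of the list was between -0.101 and 0.0511 in these comparisons.

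SULF2, an extracellular sulfatase that removes 6-O-sulfate from heparan sulfate, rose with both ligands in both lines. Its mean level in BT474 at 12 h was 50.5 CPM with vehicle, 108 CPM with EGF and 141 CPM with HRG, and the log2 fold change was 1.07 ± 0.053 (edgeR adjusted p = 3.41e-18) and 1.45 ± 0.052 (edgeR adjusted p = 7.7e-23). In BT474R it went from 44.8 CPM to 129 CPM with EGF (1.53 ± 0.083) and to 94.7 CPM with HRG (1.06 ± 0.083). CSGALNACT1, which starts the chondroitin sulfate chains made on the same linker, rose as well. In BT474 at 12 h it went from 2.30 CPM to 5.17 CPM with EGF (1.14 ± 0.17) and to 7.03 CPM with HRG (1.57 ± 0.16), and in BT474R from 10.1 CPM to 25.3 CPM and 18.7 CPM. PAPSS2, a synthase of the sulfate donor PAPS, rose in BT474 by 0.98 ± 0.19 with EGF and 1.26 ± 0.17 with HRG at 12 h. GPC4, a glypican core protein, rose in EGF-BT474R by 0.46 ± 0.12 at 12 h and 0.80 ± 0.12 at 24 h.

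HS3ST5, a 3-O-sulfotransferase, went in BT474 at 24 h from 2.65 CPM to 1.08 CPM with EGF (-1.32 ± 0.24) and to 0.481 CPM with HRG (-2.47 ± 0.28, edgeR adjusted p = 7.23e-09). HS3ST3B1, another 3-O-sulfotransferase, fell in BT474 at 24 h by 1.06 ± 0.28 with EGF and by 1.29 ± 0.28 with HRG, and in EGF-BT474R at 12 h by 1.25 ± 0.22. HS6ST3, a 6-O-sulfotransferase, fell in BT474R at 12 h by 0.47 ± 0.077 with EGF and by 0.43 ± 0.075 with HRG. GLCE, the epimerase that acts after the NDST step, fell in EGF-BT474R at 12 h by 0.44 ± 0.087. GPC5, a glypican at 1.47 CPM with vehicle, fell in BT474 at 12 h by 1.02 ± 0.32 with EGF and by 1.00 ± 0.30 with HRG.

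Between the lines at T0, 46 of the 59 tested list genes were called, 33 higher and 13 lower in BT474R, which is 78% of the list where 46.9% of all genes were called. In the vehicle groups 47, 45 and 45 list genes were called, in order of time. This was 79.7%, 76.3% and 76.3% of the list, where 50.2%, 49.0% and 49.3% of all genes were called.

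The genes most like NDST4 over the 20 groups, after each line was centred on its own mean and among 15066 candidates, were TESK2 (Pearson r = 0.964), SYNE1 (0.962), SYMPK (0.958), ERBB4 (0.957) and PPM1H (0.956). For SDC3 they were PRDX5 (0.913), ARAP1 (0.9), TSNARE1 (0.888), OXSM (0.885) and CLSTN3 (0.877). The groups share depth and scaling, and the correlations are given as a description.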

How the data were processed

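RNA-seq was done on 40 libraries of BT474 and BT474R cells. The authors deposited raw read counts per gene, which they made with featureCounts on GRCh38.p13 after trimming with Trim Galore 0.6.6 and quality control with FastQC and MultiQC, per the submitters' processing notes. Which annotation release and strand setting were used, and how multi-mapping reads were counted, is not given in the sources used here, so counts of overlapping genes are uncertain. Library totals were 16794594 to 33387936 counts (mean 24593441), intervals and limits cover counting error only, and 0 columns belonged to another series.

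The counts were fitted with edgeR 4.0.16 (R 4.3.3, TMM scaling, quasi-likelihood F test, Benjamini-Hochberg adjustment over all genes, threshold 0.05). Each line was fitted on its 20 libraries for the ligand and T0 comparisons, and all 40 libraries were fitted together for comparisons between the lines. Genes counted at all (1 count) in fewer than 50% of the fitted libraries were dropped, which left 25146 genes in BT474, 24287 in BT474R and 24641 in both. The scripts were tested on simulated data. The 10 members and all gene lists were chosen with earlier results of these data known. All members are named, and, for each line and ligand, up to 3 pathway genes per direction with the largest log2 fold change at 12 h or 24 h among those called at both times with a mean of 1 CPM or more in the line. Alternatives were DESeq2 1.42.0, DESeq2 size factors in edgeR, filterByExpr, no filter, the replicate number as a block, 1 fit of all 40 libraries, only the compared groups, and leaving out each library, where the genes and the dispersion trend of the full fit were kept and the quasi-dispersions refitted. A group left with 1 library is then assumed to vary like the others. Transcript lengths came from GENCODE 44 and promoters from RefSeq. The replicate numbers were checked for pairing and do not mark a shared culture in the labels.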

Additional observations from a re-analysis of the deposited data

Results flagged for a closer look

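The results below were marked because an interaction term found the same ligand effect to differ between BT474 and BT474R. For SDC4 the EGF effect at 24 h was higher in BT474R by 0.35 ± 0.070 on the log2 scale (SE, n = 2 a group; edgeR's quasi-likelihood test, Benjamini-Hochberg adjusted p = 0.00119). The HRG effect on SDC4 at 24 h differed by 0.26 ± 0.070 (edgeR adjusted p = 0.0296), and this call was lost when any 1 of 5 libraries was left out (0.20 to 0.27): BT474 vehicle replicate 1 or 2, BT474 HRG replicate 1, BT474R vehicle replicate 1 or BT474R HRG replicate 2. For EXT1 the EGF effect at 24 h was higher in BT474R by 0.49 ± 0.10 (edgeR adjusted p = 0.00193). In both genes the vehicle level at 24 h was lower in BT474R than in BT474. Groups of 2 libraries are too small for a test of single outlying samples.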

How the results depend on the processing

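Of the member values recomputed under another tool, scaling, filter or set of libraries, 63 gained a call, 22 lost one, and no called value reversed. The other 1935 kept their side of the threshold or, where not tested, their direction and their size within the spread of the libraries. A value called in neither fit could change its sign and still count as kept. With 1 library left out, 1251 were kept in this way, 20 gained a call, 60 lost one, and 29 values not tested (NDST4, and SDC3 at T0) moved. Counts add the time points of a comparison. Between HRG and EGF in BT474, 0 members were called, against 1 with no filter, 1 with the replicate block and 2 with only the compared groups, and in BT474R 0 against 1 with DESeq2 size factors, 1 with filterByExpr, 1 with no filter and 2 in 1 fit of all 40 libraries. From T0 to vehicle 7 calls in BT474 became 1 in 1 fit of all 40 libraries and 14 with only the compared groups, and 5 in BT474R became 10 with only the compared groups. For the HRG effect between lines 1 call became 2 with DESeq2, 3 with no filter and 4 with only the compared groups. The 12 pathway calls in HRG-BT474R became 20 in 1 fit of all 40 libraries and 7 with only the compared groups, a fit that called 0 of all genes at 24 h. The cause was not tested.

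Leaving out 1 library gave 1 to 6 member calls in HRG-BT474R (3 with all libraries), lowest without HRG 12 h replicate 2 and highest without HRG 24 h replicate 1, which also gave 7 and 17 pathway calls there. Between HRG and EGF it gave 0 to 2 calls in BT474 (EGF 24 h replicate 2) and 0 to 3 in BT474R (either HRG 24 h library). From T0 to vehicle it gave 2 to 7 in BT474 (either T0 library, vehicle 1 h replicate 2) and 2 to 7 in BT474R (T0 replicate 2, vehicle 1 h replicate 2). For the HRG effect between lines it gave 0 to 2 (either BT474 vehicle 24 h library, BT474 HRG 24 h replicate 1, BT474R vehicle 24 h or HRG 24 h replicate 1). Libraries with the same replicate number had deviations that correlated between -0.101 and 0.43, so the numbers were not taken as pairs. The replicate block lost no member call and gained 6: SDC3 in HRG-BT474 and SDC1 in HRG-BT474R at 24 h, NDST1 between HRG and EGF at 12 h in BT474, SDC1 at 12 h and NDST1 at 24 h from T0 in BT474, and NDST4 between the lines at T0, where 7 calls became 8. Depth limits NDST3, at 17 counts or fewer, and NDST4 in EGF-BT474R, at 7 or fewer after 12 h and 24 h.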
